A study of Arabidopsis thaliana with 34 samples.

Results

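FWA (AT4G25530) and SDC (AT2G17690) are genes of Arabidopsis whose promoters carry tandem repeats, and every deposited ChIP-seq peak within 3 kb of either gene is described here. They are 2 of the 27444 nuclear protein-coding genes in the TAIR10.1 annotation and were taken by gene identifier. No measured value entered this rule, but earlier results of these data were known when the genes were chosen. FWA runs from chr4:13038360-13042464 on the forward strand with 10 exons, and its coding sequence begins in the third, at position 952. SDC runs from chr2:7682162-7684083, also on the forward strand, with 3 exons and coding sequence from position 656. Positions are bases from the first annotated base of the gene, which is 0, and negative positions lie upstream. Each gene was examined in a window with 3 kb on both sides (10105 bases for FWA, 7922 for SDC) and in a promoter of 1 kb on both sides of position 0.

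Of 34 libraries of the Col-0 accession, 18 had a peak list, with 2 libraries for each of 9 pairs of antibody and genotype. NRPE1 was profiled in h1, ZF108-DMS3 and WT, H1 in nrpe1, ZF108-DMS3 and WT, H3K9me2 in h1 and WT, and SUVH1-3xFLAG in h1 only. The h1 plants are homozygous for both h1.1-1 and h1.2-1, nrpe1 carries nrpe1-11, and WT plants carry no transgene. ZF108-DMS3 is 1 homozygous line with the pEG302-DMS3-3xFLAG-ZF transgene in otherwise wild-type Col-0. The SUVH1 plants carry a genomic SUVH1-3xFLAG transgene in the same h1 double mutant and were immunoprecipitated with anti-FLAG. Pooled seedlings of 10 to 12 days were the material in the extraction protocol, while the sample labels name floral tissue. The study also states that NRPE1 and H1 in ZF108-DMS3 were profiled from the same chromatin.

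In RNA-directed DNA methylation (RdDM), transcripts of RNA polymerase V, whose largest subunit is NRPE1, guide the methyltransferase DRM2 to matching DNA. FWA encodes a homeodomain transcription factor of the HD-ZIP class IV family, and SDC encodes an F-box protein. Both are silenced in vegetative tissue by methylation of the repeats at their promoters, and loss of it gives late flowering through FWA and curled leaves through SDC. DMS3 is a component of the complex that brings polymerase V to chromatin, and the zinc finger ZF108 was designed to bind FWA. H1 is the linker histone, H3K9me2 marks heterochromatin, and SUVH1 is a reader of methylated DNA.

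The repeats are shown because the highest NRPE1 peak at FWA lay on them in every list. Upstream of FWA, 38 bases occur as an exact direct repeat, with copies that begin 45 bases apart at −111 and −66. The 150 bases before the FWA gene, chr4:13038210-13038359 of TAIR10.1, forward strand, have both copies in capitals.
FWA upstream: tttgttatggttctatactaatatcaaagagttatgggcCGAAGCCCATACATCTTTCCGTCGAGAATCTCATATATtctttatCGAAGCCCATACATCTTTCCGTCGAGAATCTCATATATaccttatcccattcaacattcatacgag

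A second set of FWA repeats spans positions −25 to 332 and holds the first 2 exons, with exact matches of 26, 63 and 27 bases whose copies begin 210 or 211 bases apart. The 27-base match lies outside exons, in the first and second introns, and is shown as the part of this set free of transcribed exon (chr4:13038456-13038482 and chr4:13038666-13038692, forward strand, all in capitals).
FWA intron repeat, first copy: TTTTCTTCTTACGATTTATCGATTTGT
FWA intron repeat, second copy: TTTTCTTCTTACGATTTATCGATTTGT

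SDC has instead an array of 6 units of 32 bases that follow each other without a gap, chr2:7681910-7682101, from −252 to −61 and so wholly upstream of the gene. The units are given in order with the bases that differ from the commonest base of units 2 to 5 in capitals.
SDC unit 1: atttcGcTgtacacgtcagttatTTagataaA
SDC unit 2: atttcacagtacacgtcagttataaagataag
SDC unit 3: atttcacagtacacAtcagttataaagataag
SDC unit 4: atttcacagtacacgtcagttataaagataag
SDC unit 5: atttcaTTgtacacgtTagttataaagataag
SDC unit 6: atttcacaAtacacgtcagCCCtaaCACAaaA

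Units 2 and 4 are identical, and the outermost units differ most, by 5 bases in unit 1 and 9 in unit 6. The upstream FWA repeat held 6 CG sites in 83 bases (7.23 per 100 bases, against 2.00 over its whole promoter). The exact repeats of SDC held 3 CG sites in 136 bases (2.21 per 100, against 2.55 over its promoter) and 6 CHG sites, where H is any base but G (4.41 per 100, against 2.30). The upstream FWA repeat held 2 CHG sites (2.41 per 100, against 1.70). The authors kept only reads that map to 1 place, so the repeats were checked for words of 50 bases, the read length. All 34 words within the upstream FWA repeat and all 87 within the exact SDC repeats occurred once in the genome. In the second FWA stretch 281 of 309 words did, and the others lay in the 63-base match.

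The lists held 18173 to 25522 NRPE1 peaks, 13938 to 18181 SUVH1 peaks, 19979 to 22361 H1 peaks and 6813 to 8286 H3K9me2 peaks. A fold is the enrichment of a peak over its local background as the authors' peak caller gave it. Depth is unknown, since the lists hold no reads. The NRPE1 lists of ZF108-DMS3 stood apart: they covered 7.20 and 7.53 Mb, against 13.6 and 13.8 Mb in WT, and 57.2% and 51.1% of their peaks overlapped a peak of the other replicate, against 76.8% and 77.4% in WT. The NRPE1 lists of h1 covered 22.7 and 21.2 Mb, with median folds of 3.64 and 4.05, against 2.89 and 3.33 in WT. Genotypes were compared by an exact two-sided permutation test, whose smallest possible p with 2 libraries against 2 is 0.333, and no difference could therefore reach a threshold. Its p is the share of ways to assign these libraries to genotypes that give a difference of means at least as large as that observed. It speaks only for these libraries. The 2 WT lists of an antibody serve in both of its comparisons, so those comparisons are not independent.

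Across the FWA window the 18 lists held 52 peaks, in 14 lists, and across the SDC window 19 peaks, in 13 lists. The peaks divided by antibody along both loci. NRPE1 and SUVH1 peaks lay at the start of the gene and upstream, with exceptions at the 3' end of SDC and in its body. H1 peaks lay in the body of FWA and downstream of it, and far upstream and in the body of SDC. H3K9me2 had no peak in either window.

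**Figure D1:**
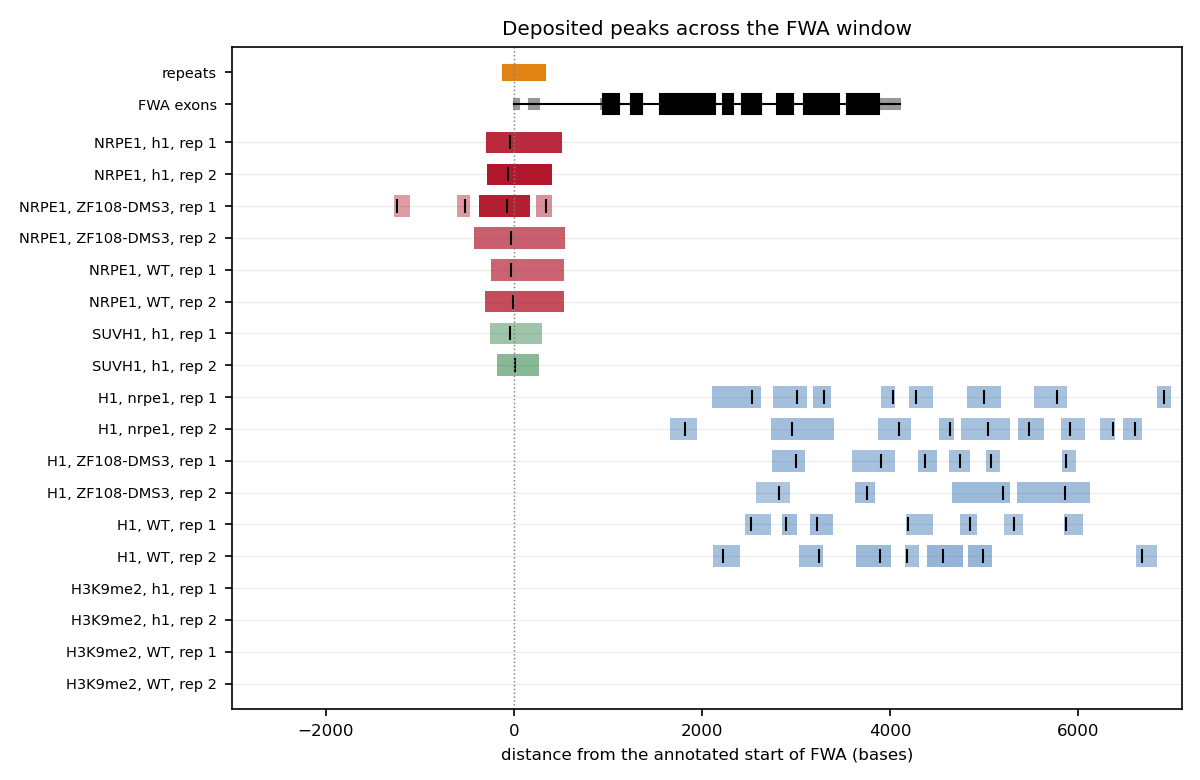
Peaks of the 18 lists across the FWA window, by distance from the annotated start in bases. Bars are peaks, darker with higher fold, black ticks are summits, grey boxes non-coding and black boxes coding exons, and orange bars repeats. All 6 NRPE1 lists and both SUVH1 lists have a peak over the start, and H1 peaks begin at position 1657.

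At FWA, the NRPE1 peak sat over the repeats in all 6 lists. It had a fold of 8.97 and 10.3 in the h1 libraries (replicates 1 and 2), against 5.67 and 6.96 in the WT libraries. Both h1 values were above both WT values, by a mean of 3.30 (exact permutation p = 0.333). The h1 mean was 9.62 ± 0.917 and the WT mean 6.32 ± 0.912 (SD, n = 2 each), a ratio of 1.52. Higher folds in both h1 libraries were common: of 6027 genes with an NRPE1 promoter peak in all 4 lists, 42.4% showed them, 7.33% showed both below, and the median ratio was 1.26. Of the same genes, 70.0% had a ratio below that of FWA. The median fold of all promoter peaks was 6.60 and 7.75 in the h1 lists, against 4.55 and 6.72 in the WT lists. Ranked within its own list, the FWA peak stood at percentile 88.5 and 87.3 in h1, against 89.0 and 81.2 in WT, so that on this scale the groups overlapped.

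The width of the FWA peak did not separate h1 from WT. It was 811 and 685 bases in h1, against 775 and 836 bases in WT, and the groups overlapped (mean difference −57.5 bases, exact permutation p = 0.667). The bases under NRPE1 peaks made up 8.03% and 6.78% of the window in h1, against 7.67% and 8.27% in WT (exact permutation p = 0.667). Over the 14649 genes with an NRPE1 peak in any of these lists, both h1 libraries were above WT at 35.8% and below at 24.4%. The 4 peaks shared 645 bases, positions −240 to 404, which hold both sets of repeats whole.

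In ZF108-DMS3, whose zinc finger was made for this gene, the FWA promoter peak had a fold of 9.63 and 5.93, against 5.67 and 6.96 in WT. The first library lay above both WT libraries and the second between them (mean difference 1.47, exact permutation p = 0.667). Without the first ZF108-DMS3 library the difference was −0.38. Most promoters bound in both genotypes had lower folds in ZF108-DMS3: of 2972 genes with a promoter peak in all 4 lists, 66.0% had both ZF108-DMS3 libraries below both WT libraries, 5.45% had both above, and the median ratio was 0.577. The ratio at FWA was 1.23, and 90.0% of these genes had a lower one.

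**Figure D2:**
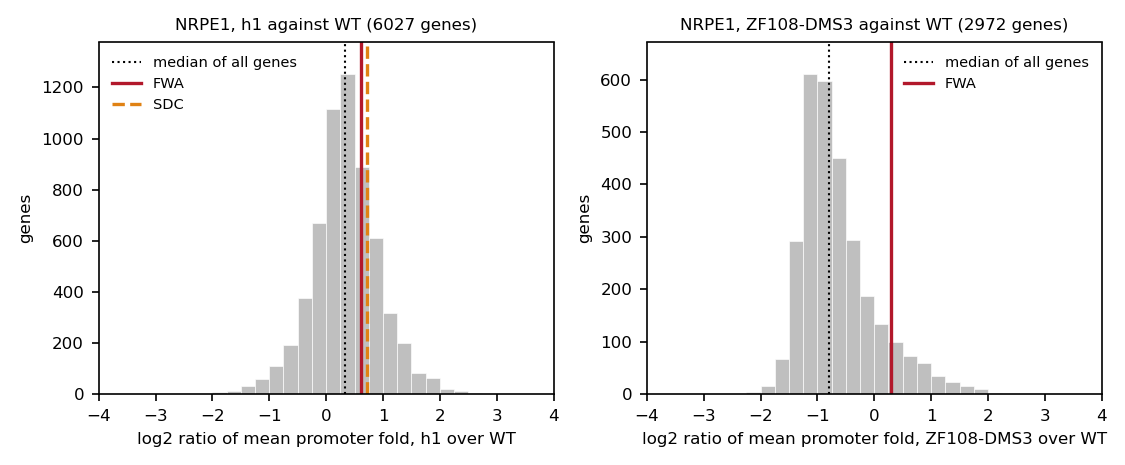
Ratio of the mean promoter fold of NRPE1, on a log2 scale, over all genes with a promoter peak in the 4 lists compared: h1 over WT (left, 6027 genes) and ZF108-DMS3 over WT (right, 2972 genes). Bars count genes, the dotted line is their median, the solid line FWA and the dashed line SDC. FWA lies at 0.61 for h1 and at 0.30 for ZF108-DMS3, where the median is −0.79, and SDC lies at 0.71 for h1.

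Ranked within its list, the FWA peak stood at percentile 92.9 and 91.0 in ZF108-DMS3, against 89.0 and 81.2 in WT. On this scale both ZF108-DMS3 libraries were above both WT libraries (mean difference 6.86, exact permutation p = 0.333), which 9.22% of the 2972 genes also showed, while 70.6% had both below. FWA was not among the highest promoters of these lists. In the ZF108-DMS3 libraries 9.75% of 10501 and 15.0% of 8730 promoters with a peak had a higher fold, against 30.6% of 6602 and 47.8% of 6955 in the WT libraries. The promoters ranked thus differ in number between the genotypes, and no difference was read from these shares. Of 6450 genes with a promoter peak in both ZF108-DMS3 libraries, 637 exceeded FWA in both.

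The ZF108-DMS3 peaks at FWA differed in shape between the replicates. Replicate 1 had 4 peaks: the main peak from −365 to 170, a second of fold 3.03 from 239 to 403, and upstream peaks of fold 2.46 and 2.33 with summits at −519 and −1240. Replicate 2 had a single peak of 963 bases, from −418 to 544. The NRPE1 bases of the window came to 10.1% and 9.53% in ZF108-DMS3, against 7.67% and 8.27% in WT. Both ZF108-DMS3 values were above both WT values (mean difference 1.82, exact permutation p = 0.333), as in 31.2% of the 22714 genes with an NRPE1 peak in any of these 4 lists. The width of the main peak, 536 and 963 bases in ZF108-DMS3 against 775 and 836 bases in WT, overlapped between the groups (mean difference −56.0 bases, exact permutation p = 1.0). Among the 2972 genes, both ZF108-DMS3 widths were below both WT widths at 71.7% and above at 7.94%.

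The summit of the main FWA peak was at −36 and −65 in h1 and at −69 and −34 in ZF108-DMS3, against −26 and −12 in WT. The h1 and ZF108-DMS3 summits all lay on the upstream 38-base repeat or between its copies. Both WT summits lay between it and the start of the gene, and that of replicate 2 fell within the second set of repeats, which begins at −25. Summit positions were not compared over all genes, so no difference between genotypes was read from them. All 6 NRPE1 lists covered the whole of the upstream repeat. The second stretch was covered whole in 5 lists, the exception being ZF108-DMS3 replicate 1, whose gap fell between 170 and 239.

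**Figure D3:**
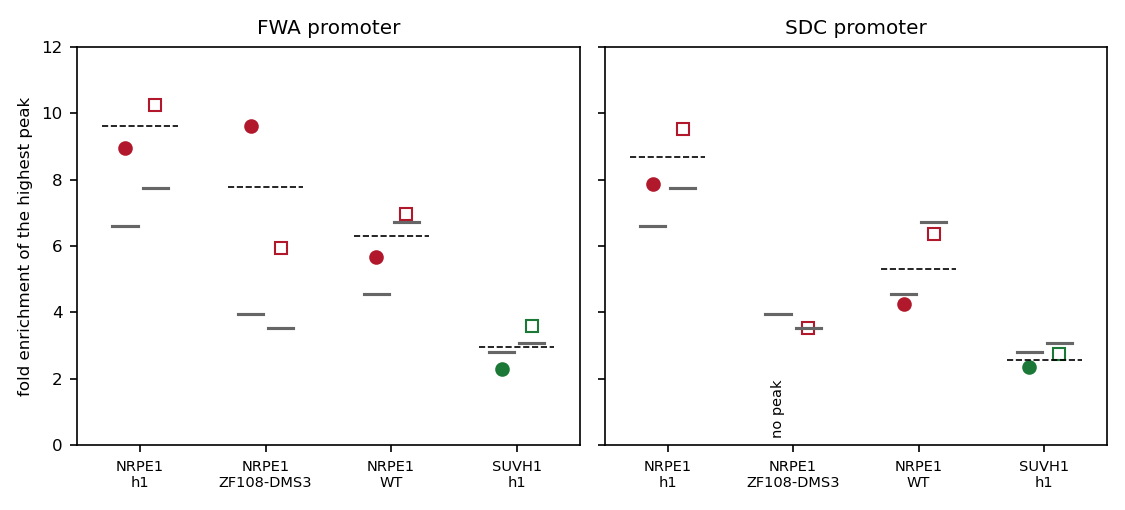
Fold enrichment of the highest peak at the FWA promoter (left) and the SDC promoter (right), for NRPE1 in h1, ZF108-DMS3 and WT and SUVH1 in h1. Filled circles are replicate 1, open squares replicate 2, dashed lines group means and short grey lines the median over all promoters with a peak in that library. Both h1 values exceed both WT values at FWA and at SDC, and SDC has no promoter peak in ZF108-DMS3 replicate 1. The SDC peak of WT replicate 2 reaches into the promoter but has its summit upstream of it.

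At SDC, the highest NRPE1 peak was wider than at FWA in each h1 and WT library, and peaks covered the whole array in these 4 lists. The highest peak that reached into the promoter had a fold of 7.87 and 9.52 in h1, against 4.24 and 6.36 in WT. The summits of these peaks lay at −35 and −405 in h1 and at −43 and −1431 in WT (replicates 1 and 2), none of them on the array. The 6.36 of WT replicate 2 belongs to a summit outside the promoter, and none of these folds is a measure of the array itself. Both h1 values were above both WT values, by a mean of 3.39 (exact permutation p = 0.333). The means were 8.70 ± 1.16 in h1 and 5.30 ± 1.50 in WT (SD, n = 2 each), a ratio of 1.64. Without WT replicate 2 the difference was 4.45, and without WT replicate 1 it was 2.33. The same order held in 42.4% of genes, and 76.5% of the 6027 genes had a ratio below that of SDC. Within its list the SDC peak stood at percentile 84.3 and 85.1 in h1, against 77.8 and 78.3 in WT. The WT replicate 2 percentile is that of the same upstream summit. Both h1 libraries were again above both WT libraries (mean difference 6.64, exact permutation p = 0.333), and 29.3% of genes showed it.

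**Figure D4:**
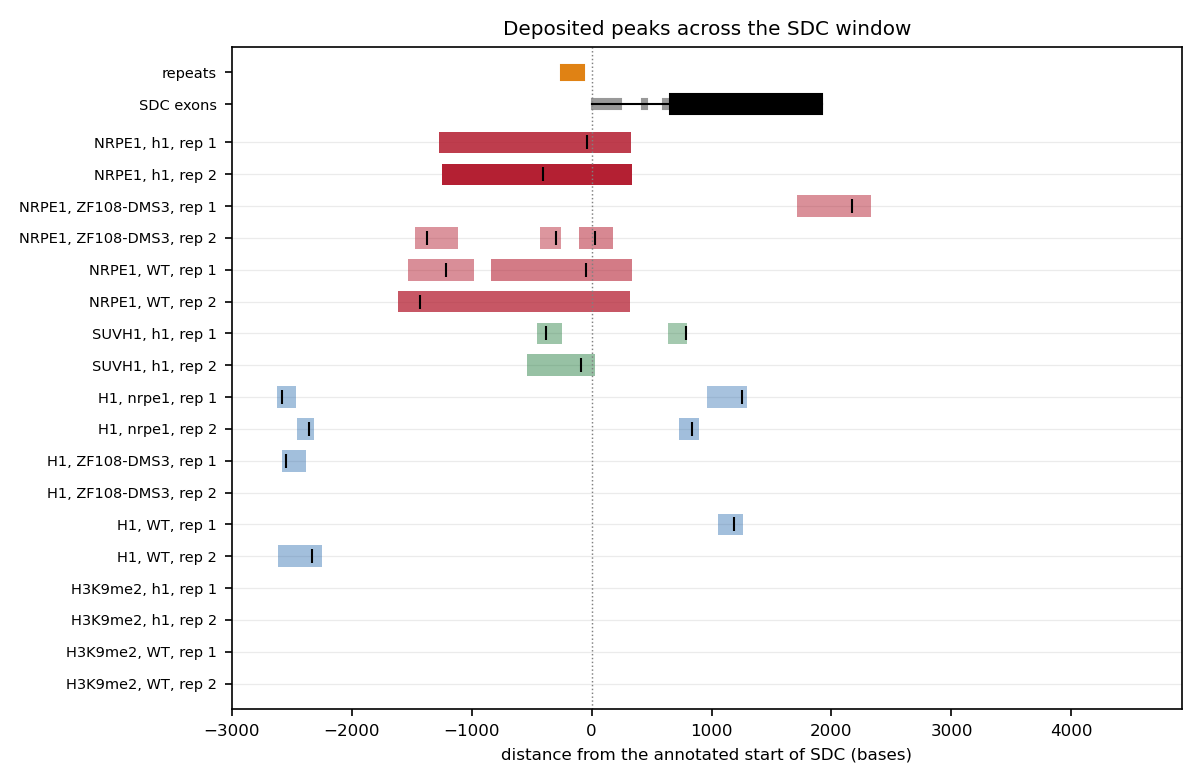
Peaks of the 18 lists across the SDC window, by distance from the annotated start in bases. Bars are peaks, darker with higher fold, black ticks are summits, grey boxes non-coding and black boxes coding exons, and the orange bar the array of 32-base units. NRPE1 peaks of h1 and WT cover the array, and ZF108-DMS3 replicate 1 has its only peak at the 3' end of the gene.

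The outline of the SDC peaks differed between the WT replicates, and the widths of h1 and WT overlapped. In h1 the array lay within a single peak of 1592 bases (−1267 to 324) in replicate 1 and of 1580 bases (−1244 to 335) in replicate 2. In WT replicate 1, a peak of 1174 bases over the array and a separate upstream peak of 547 bases (fold 3.16) left a gap between −984 and −834. In WT replicate 2 both were joined in 1 peak of 1928 bases, with its summit far upstream at −1431. The width of the highest peak averaged 1586 bases in h1 and 1551 bases in WT (exact permutation p = 1.0), and without WT replicate 1 the difference was −342.0 bases. WT peaks reached further upstream, to −1530 and −1609, but upstream edges were not compared over all genes. NRPE1 peaks covered 20.1% and 19.9% of the SDC window in h1, against 21.7% and 24.3% in WT, both below WT (exact permutation p = 0.333) as in 24.4% of 14649 genes. In the promoter alone the order turned, with 66.2% and 66.8% covered in h1, against 59.5% and 65.9% in WT. The WT libraries lay further apart than the nearest h1 and WT values, and no share over all genes was made for the promoter alone.

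In ZF108-DMS3 the NRPE1 peaks at SDC differed between the replicates. Replicate 1 had no promoter peak and a single peak at the 3' end of the gene, from 1715 to 2329, with a fold of 3.05. Replicate 2 had peaks of fold 2.72 and 3.53 within the promoter and 1 of fold 2.82 upstream, at −1472 to −1110. Its peak of fold 3.53 stood at percentile 64.6 of that list, whose median promoter fold was 3.54. In WT replicate 1 the peak over the array, with its summit at −43, had a fold of 4.24, and the WT replicate 2 peak had its summit outside the promoter. With 1 ZF108-DMS3 library lacking a peak, no test of fold or width was made. Peaks covered 7.76% and 10.4% of the SDC window in ZF108-DMS3, against 21.7% and 24.3% in WT. Both ZF108-DMS3 values were below both WT values, with a mean difference of −14.0 percentage points (exact permutation p = 0.333), as in 38.0% of 22714 genes. Of the array, 0% and 21.4% lay under peaks in ZF108-DMS3, against 100% in both WT libraries.

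A missing ZF108-DMS3 peak was common among promoters with NRPE1 peaks. Of the 6027 genes with an NRPE1 promoter peak in all 4 h1 and WT lists, 50.3% had none in ZF108-DMS3 replicate 1 and 18.3% none in replicate 2. In replicate 1 FWA had a promoter peak and SDC had none. All 6 NRPE1 lists had a peak at 10.3% of all promoters, FWA among them.

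SUVH1 had promoter peaks at both genes in both h1 libraries. At FWA their fold was 2.30 and 3.60, with summits at −41 and 13, and both peaks covered the upstream repeat whole. At SDC the highest fold was 2.35 and 2.75. The SDC peak of replicate 1 ended at −249 and covered 2.08% of the array, while that of replicate 2 ran from −541 to 27 and covered it whole. The median over all promoters with a SUVH1 peak was 2.81 and 3.08, so the folds at SDC were below it in both libraries and those at FWA on either side of it. Of the 6027 genes with NRPE1 in all h1 and WT lists, 48.1% had SUVH1 promoter peaks in both libraries, against 11.7% of all genes. SUVH1 in other genotypes was not analysed here, so its levels were not compared between genotypes.

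NRPE1 and SUVH1 peaks of all 8 lists shared 345 bases at FWA, positions −174 to 170, and a further 31 bases from 239 to 269. At SDC the 4 h1 and WT lists of NRPE1 and both SUVH1 lists shared 205 bases, −453 to −249, which begin upstream of the array and end inside its first unit.

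H1 peaks were numerous but weak at FWA: 41 peaks in 6 lists, with folds of 1.64 to 3.03. None touched the promoter, and the first began at position 1657, 1253 bases beyond the stretch that NRPE1 covered in all h1 and WT lists. They lay from the fifth exon on and downstream of FWA, in the 3' part of MSH3, a mismatch repair gene on the reverse strand. The mean H1 cover of the FWA window over the 6 lists was 20.1%, higher than in 96.2% of genes.

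In nrpe1, the H1 peaks covered 23.0% and 28.9% of the FWA window, against 15.3% and 19.1% in WT. Both nrpe1 libraries were above both WT libraries (mean difference 8.73 percentage points, exact permutation p = 0.333). The same order held in 10.9% of the 12089 genes with an H1 peak in any of these lists. Of those genes, 98.8% had a smaller difference. That rank is in points of cover, and most genes have little H1 cover: FWA had more than 96.2% of all genes. Leaving out 1 library at a time gave 5.81 (without nrpe1 replicate 2) to 11.7 (without nrpe1 replicate 1) percentage points. Genome-wide, H1 peaks were fewer in nrpe1 (20821 and 19979) than in WT (22267 and 22361), but cover depends on bases and not on peak number. The total length under H1 peaks was 14.8 and 14.9 Mb in nrpe1, which lay between the 14.0 and 15.8 Mb of WT. The median H1 peak was wider in nrpe1, at 306 and 315 bases, against 297 and 293 bases in WT. Whether this width bears on the cover of FWA was not tested. The additional bases of the FWA window lay in the gene body and in the 3 kb downstream. The gene body was covered to 29.5% and 29.3% in nrpe1, against 16.5% and 22.3% in WT. The 3 kb downstream were covered to 37.1% and 57.1% in nrpe1, against 29.1% and 33.7% in WT. The 3 kb upstream of FWA held no H1 peak in any list. Positions varied between replicates: 31.2% of the bases under either nrpe1 list were under both, and 15.6% of those under either WT list.

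In ZF108-DMS3 the H1 cover of the FWA window was 15.1% and 19.4%, against 15.3% and 19.1% in WT, and the groups overlapped (mean difference 0.0198 percentage points, exact permutation p = 1.0). The NRPE1 peak from the same chromatin covered the start of FWA in both of these libraries, as described above.

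**Figure D5:**
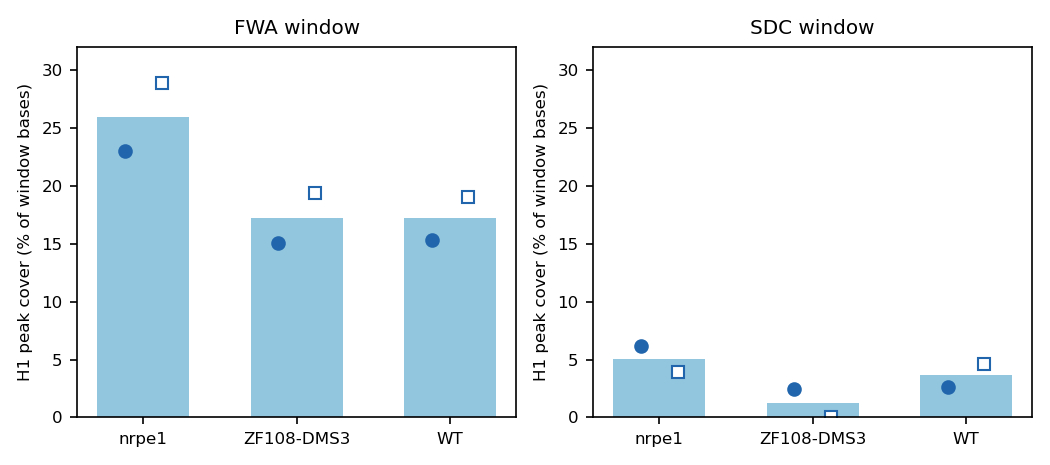
Share of the bases of the FWA window (left) and the SDC window (right) that lie under H1 peaks, in percent, in nrpe1, ZF108-DMS3 and WT. Bars are means of 2 libraries, filled circles replicate 1 and open squares replicate 2. At FWA both nrpe1 libraries lie above the other 4, and at SDC nrpe1 and WT overlap.

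SDC carried fewer H1 peaks, 7 in 5 lists with folds of 1.97 to 2.25. They fell in 2 places: between −2618 and −2251, at the far upstream edge, and from 729 to 1297 in the gene body. The upstream peaks lay within the neighbouring gene AT2G17680. Those in the gene body lay where AT2G17695 overlaps SDC in antisense, so they cannot be assigned to either gene. The only 2 H1 peaks that touched the SDC promoter were in nrpe1, from 965 to 1297 and from 729 to 891. H1 cover of the window was 6.19% and 3.91% in nrpe1, against 2.66% and 4.58% in WT, and the groups overlapped (exact permutation p = 0.667). In ZF108-DMS3 it was 2.47% and 0%, against 2.66% and 4.58% in WT. Both ZF108-DMS3 values were below both WT values (mean difference −2.39 percentage points, exact permutation p = 0.333), as in 10.4% of 12463 genes, but the difference is that of 1 peak in each of 3 lists.

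In neither window did NRPE1 and H1 peaks share a base. At FWA, 1278 bases lay under an NRPE1 peak of any list and 4809 under an H1 peak of any list, and at SDC the totals were 2564 and 864 bases. Of all 11357 genes with peaks of both antibodies in their window, 57.9% likewise shared none. Of the 6027 genes with NRPE1 promoter peaks in all h1 and WT lists, 67.1% had no H1 promoter peak in any of the 6 lists, against 81.0% of all genes.

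H3K9me2 had 0 peaks in either window in the h1 libraries and 0 in the WT libraries, with 0% of either window covered in all 4 lists. Among the 2220 genes with an H3K9me2 peak in any of these lists, both h1 libraries were above WT at 8.78% and below at 24.5%. A window without an H3K9me2 peak was the usual case, at 91.9% of all genes and 82.8% of the 12081 genes with an NRPE1 peak in all h1 and WT lists. The lists give no limit on how much H3K9me2 below the calling threshold these loci could carry.

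Of the 5 neighbouring genes, STY8 had NRPE1 promoter peaks in all 6 lists, and the others in 3 lists or fewer. SLK1, upstream of FWA and on the reverse strand, had 1 peak of fold 2.33, in ZF108-DMS3 replicate 1, and MSH3 had none. The SLK1 peak is the upstream FWA peak with its summit at −1240 described above, so it cannot be assigned to either gene. AT2G17695, which overlaps the 3' part of SDC in antisense, had 1 peak, the 3' peak of ZF108-DMS3 replicate 1 described above, so that peak cannot be assigned to either gene. AT2G17680, upstream of SDC, had promoter peaks of fold 7.25 and 4.08 in ZF108-DMS3, none in h1, and in WT 1 of fold 2.78 in replicate 1 only. STY8, a protein kinase gene downstream of SDC, had peaks at its own promoter outside the SDC window, of fold 8.50 and 10.5 in h1 and 2.69 and 3.00 in ZF108-DMS3, against 5.37 and 8.17 in WT.

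FWA belongs to the HD-ZIP class IV family, so the other 15 members were read in the same way. Of these, 4 had an NRPE1 promoter peak in all h1 and WT lists: HDG3, HDG8, HDG9 and HDG10, against 22.0% of all genes. Both h1 libraries were above both WT libraries at 2 of the 4 and below at 0. HDG8 had folds of 10.2 and 11.2 in h1, against 5.50 and 9.02 in WT, and HDG10 had 13.4 and 16.3 in h1, against 5.30 and 8.42 in WT. In ZF108-DMS3 both libraries were below both WT libraries at all 4. Over all genes with such peaks these shares were 42.4% for h1 and 66.0% for ZF108-DMS3. HDG9 had folds of 5.69 and 8.64 in ZF108-DMS3, against 10.5 and 16.4 in WT, and HDG3 had 6.43 and 4.35 in ZF108-DMS3, against 7.28 and 10.6 in WT.

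A further 4 members of the family, named here after their values were seen, had promoter peaks in both ZF108-DMS3 libraries and in no h1 or WT list, as did 11.8% of all genes. They were HDG2 (fold 14.2 and 9.50), PDF2 (9.33 and 5.59), HDG1 (4.03 and 2.43) and ATML1 (3.79 and 2.07). HDG2 exceeded FWA in both libraries. ATML1 and PDF2 are regulators of epidermal identity. The ZF108 target sequence was not analysed here.

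A second list held 9 genes whose expression is known to depend on DNA methylation, HDG3 and HDG9 among them. NRPE1 promoter peaks were present in all h1 and WT lists at 6 of the 9, against 22.0% of all genes. Both h1 libraries were above WT at 1 of the 6 and below at 0, against 42.4% and 7.33% of all genes with such peaks. MEA, a Polycomb group gene named here after its values were seen, is not among the 6, since it had no promoter peak in either h1 list and peaks of fold 2.28 and 2.57 in WT, a pattern of 1.04% of all genes. The gene above WT was AGL36, a MADS-box gene imprinted in endosperm, with folds of 16.3 and 20.2 in h1 and 4.73 and 4.08 in ZF108-DMS3, against 4.77 and 7.92 in WT. QQS, which affects starch content, had folds of 12.6 and 22.7 in h1, against 8.60 and 13.0 in WT. ROS1, the DNA demethylase (annotated as DML1), had 8.38 and 8.89 in h1, against 8.22 and 12.5 in WT, and FIS2, a Polycomb group gene, had 4.24 and 4.58 in h1, against 2.87 and 4.28 in WT. The groups overlapped at these 3 genes. In ZF108-DMS3, the 3 genes of this list with a peak in all 4 lists (HDG3, HDG9 and AGL36) were below WT in both libraries. QQS and ROS1, like SDC, had no promoter peak in ZF108-DMS3 replicate 1, and FIS2 had none in either replicate.

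Direct repeats as long as those of FWA and SDC were present in few promoters. The longest exact direct repeat with copies 20 to 250 bases apart was 63 bases in the FWA promoter and 38 bases in the SDC promoter. Repeats of at least 38 bases were present in 2.13% of all promoters (585), and of at least 63 bases in 0.528% (145). NRPE1 promoter peaks in both h1 libraries were present at 58.6% of the 145 promoters and 45.8% of the 585, against 24.2% of all promoters. In both WT libraries they were present at 54.5% and 42.9%, against 23.5% of all promoters. For both ZF108-DMS3 libraries the shares were 38.6% and 31.6%, against 23.5%. SUVH1 peaks in both h1 libraries were present at 42.1% and 29.6%, against 11.7%. H3K9me2 peaks in both WT libraries were present at 15.9% and 11.8%, against 2.93% of all promoters, and at neither FWA nor SDC. H1 peaks in both WT libraries were present at 18.6% and 19.0%, against 6.77%, and likewise at neither gene. These shares are a description with no test, and nearby genes can share a promoter.

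The promoters most like each gene were found by the mean absolute difference, over the 18 lists, of the percentile of the highest promoter fold within its list. For FWA these were IAR3, AT1G69580, AT5G40300, NDR1 and AT3G49810, with differences of 1.85 to 2.54 percentile points, against a median of 35.4 over all genes. All 5 had NRPE1 promoter peaks in all 6 lists, SUVH1 peaks in both, and no H1 or H3K9me2 promoter peak. This likeness follows from the choice, since the same lists picked the genes. For SDC they were AT5G35460, VPS24.2, SMAP1, AT1G23205 and AT3G61117, with differences of 4.43 to 4.88 points, against a median of 29.0. All 5, like SDC, lacked an NRPE1 promoter peak in 1 ZF108-DMS3 library, which likewise follows from the choice. SDC had H1 promoter peaks in both nrpe1 libraries, AT3G61117 in 1 of them and the others in neither. SDC and FWA differed from each other by 12.5 points, with 2111 genes closer to FWA than SDC was.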

How the data were processed

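The lists hold peaks that the authors called in each library separately, with MACS2 2.1.1, from reads aligned to TAIR10 with Bowtie2 2.1.0 (unique mapping, no mismatch, duplicates removed with SAMtools). The control and settings used for calling are not given in the sources used here. The deposited values per peak are a fold enrichment, which is a ratio over local background, and −log10 p and −log10 q as the authors' caller wrote them. The summit offset was used as the authors gave it, and the score column was not used. The other 16 libraries (H3 ChIP-seq and bisulfite sequencing) were not used here.

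Chromosome lengths of TAIR10.1 bound every peak, and its annotation and sequence gave genes and repeats. A peak counted from 1 shared base. Cover is the percent of window bases under peaks, and fold and width are those of the highest promoter peak. Python 3.11.15, numpy 2.4.6 and pandas 2.3.3 were used, and the functions were tested on simulated data. Genotypes were compared by exact permutation of libraries, two-sided, over 18 comparisons, of which 16 had values. The shares over all genes used those with a peak in any of the 4 lists (cover) or in all 4 (fold and width), and each list member was named by its NRPE1 promoter peak in all 4 lists of a comparison. Gene symbols of the lists were accepted from the annotation's symbols or synonyms. The alternatives were a −log10 q of at least 3, equal list lengths, other region bounds, an overlap of 0.5 of the peak, percentiles of fold, leaving out each library, and differences within replicate numbers. FWA, SDC and the gene lists were chosen with earlier results of these data known.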

Additional observations from a re-analysis of the deposited data

How the results depend on the processing

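Of 157 alternative values for the 16 comparisons, 143 kept the direction or stayed at 0, 11 reversed it and 3 became 0. The 143 include every alternative of both H3K9me2 comparisons, which were 0 throughout and had no direction to keep. They also include 16 means of differences within replicate numbers, which equal the main difference by arithmetic. In the SDC window, NRPE1 cover of h1 minus WT was −3.01 points, but 3.77 in the promoter alone and 1.93 in the gene with 1 kb on both sides. H1 cover of ZF108-DMS3 minus WT at FWA was −4.18 in the gene with 1 kb on both sides. H1 cover of nrpe1 minus WT at SDC was −0.675 with a −log10 q of at least 3. With the promoter alone, H1 cover did not differ for nrpe1 at FWA (0.0) or for ZF108-DMS3 at either gene (0.0), since no peak lay there. Leaving out 1 library at a time gave differences of both signs for 6 results. They were −1.19 to 0.0544 for NRPE1 cover of FWA in h1, −2.14 to 2.18 for H1 cover of FWA in ZF108-DMS3, −0.382 to 3.32 for the FWA fold in ZF108-DMS3, −120.5 to 5.5 bases for the FWA width in h1, −342.0 to 412.0 for the SDC width in h1, and −269.5 to 157.5 for the FWA width in ZF108-DMS3. The sign turned without h1 replicate 2 in both h1 results at FWA, without ZF108-DMS3 replicate 1 in the FWA fold and width, without ZF108-DMS3 replicate 2 or WT replicate 1 in H1 cover, and without WT replicate 1 in the SDC width. Without a change of sign, the differences moved over 1.5 times for NRPE1 cover of SDC in h1 (−4.32 to −1.70, −1.70 being without WT replicate 2), H1 cover of FWA in nrpe1 (5.81 to 11.7) and H1 cover of SDC in nrpe1 (0.290 to 2.56) and ZF108-DMS3 (−3.62 to −1.15). Where 1 library stood alone it was assumed to vary like the others. Differences within replicate numbers (a replicate block) gave the same means, such as 3.30 for the FWA fold and 3.39 for the SDC fold in h1. Exact sign changes gave p of 0.5 to 1.0, and 0.5 is the smallest p that this test can give here. Same-numbered libraries deviated together over genes in NRPE1 (correlation 0.385 for h1 and 0.120 for ZF108-DMS3) and in H1 of ZF108-DMS3 (0.173), less so in H3K9me2 (0.0779) and H1 of nrpe1 (0.0146), and no label gives the numbers a meaning, so the pairing was not used. The share of all genes above WT stayed within 1.5 times its value in all 18 alternatives tried. The tests of ZF108-DMS3 fold and width at SDC were not run, for want of a promoter peak. With no read counts, depth could not be set beside any difference, and a locus without a peak may hold signal below the calling threshold.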
